A study of Mus musculus with 10 samples.

Results

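The Elavl, Rbfox and Musashi genes encode RNA-binding proteins that steer the splicing, stability and translation of neural mRNAs, and 8 of these 9 genes held N6-methyladenosine (m6A) peaks in cultured mouse hypothalamic neural progenitor cells. The genes were Elavl1 to Elavl4, Rbfox1 to Rbfox3, Msi1 and Msi2. A peak was given to a gene where the overlap covered at least 50% of the shorter of the peak and the RefSeq gene span on GRCm38.p6, and only the strand with more immunoprecipitation (IP) reads was kept. This rule gave 11 of the 21195 deposited peaks to these genes. Msi1 was the gene without a peak.

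The cells came from the hypothalamus of embryonic day 14.5 mouse embryos with floxed Mettl14 alleles (Mettl14 f/f) and were grown with 20 ng/ml FGF2 and 20 ng/ml EGF. Mettl14 knockout cells had received lenti-EGFP-Cre and control cells lenti-EGFP, so all groups carried the floxed alleles and a lentivirus, and EGFP-positive cells were sorted after 72 hours. There were 4 m6A IP libraries from knockout cells and 4 from control cells, with 1 input library from knockout cells and 1 from control cells, all from polyadenylated RNA cut to fragments of about 80 bases. The deposited peak table had 1 column of IP reads and 1 of input reads, and neither named a genotype or a library. Knockout and control cells were therefore not compared, the loss of Mettl14 was not checked, and no value below has a replicate or an SD. The only test results are the authors' deposited p-values of each peak.

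The m6A mark is written on mRNA adenosines by a methyltransferase complex that contains Mettl14, and reader proteins that bind it can change how long an mRNA lasts and how well it is translated. In this assay an antibody enriches marked RNA fragments, and a peak is a stretch that the authors called as enriched in IP over input RNA. Elavl proteins bind U-rich and AU-rich stretches of mRNA: Elavl1 (HuR) is made in most cell types, whereas Elavl2, Elavl3 and Elavl4 are known chiefly from neurons. Rbfox proteins bind the motif GCAUG near alternative exons, and Rbfox3 is the neuronal nuclear antigen NeuN. Musashi proteins bind UAG-containing motifs, repress or activate translation, and are widely used as markers of neural stem cells.

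Over all 21195 peaks the table held 72308582 IP reads and 26633390 input reads, a ratio of 2.71 between the column totals. The ratios of IP to input reads below are not corrected for this difference. Their intervals are exact Clopper-Pearson 95% intervals that take the deposited numbers as counts of reads. They cover the error of counting alone and no error between replicates. Reads that are PCR copies of the same molecule are not independent, so the intervals are too narrow where such copies were counted. In the authors' deposited table the log2 fold change of IP over input had a median of 3.06 over all peaks. Of the Elavl, Rbfox and Musashi genes 8 of 9 had at least 1 peak, against 44.2% of RefSeq protein-coding genes under the same rule (9674 of 21900). The 9 genes had a median span of 189 kb, against 17.1 kb for all protein-coding genes, and the part of this length in the count was not tested. The overlap was complete for all 11 peaks, and no peak met a member gene with less than 50% overlap.

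Cell type markers were read from the same table. By the same rule 8 of 12 neural progenitor markers held a peak, with Vim, Fabp7, Hes5 and Id3 holding none. Of 12 neuronal markers 4 held a peak (Tubb3, Map2, Neurod1 and Gap43), and Dcx, Stmn2, Snap25 and Syt1 were among the 8 without one. Of 8 markers of microglia, blood and vessels 1 did, namely Kdr. The summed input reads in these peaks were 32302 for the progenitor list, 42150 for the neuronal list and 1751 for the third list. In the neuronal list Tubb3 held 422 and Neurod1 46 of these reads, and Map2 (7 peaks) and Gap43 (2 peaks) held the rest. In the progenitor list the strongest Slc1a3 peak alone held 11286, whereas Nes held 63 and Sox2 10. Such sums depend on the number and length of the peaks and do not measure shares of cell types. A gene without a peak can still be expressed, and the part of cells of other types in the peaks described here was not tested.

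Msi2 and Elavl3 together supplied 85.0% of the IP reads and 70.2% of the input reads of the 11 peaks. The Msi2 peak had the highest ratio of IP to input reads and the Rbfox1 peak the lowest.

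**Figure D1:**
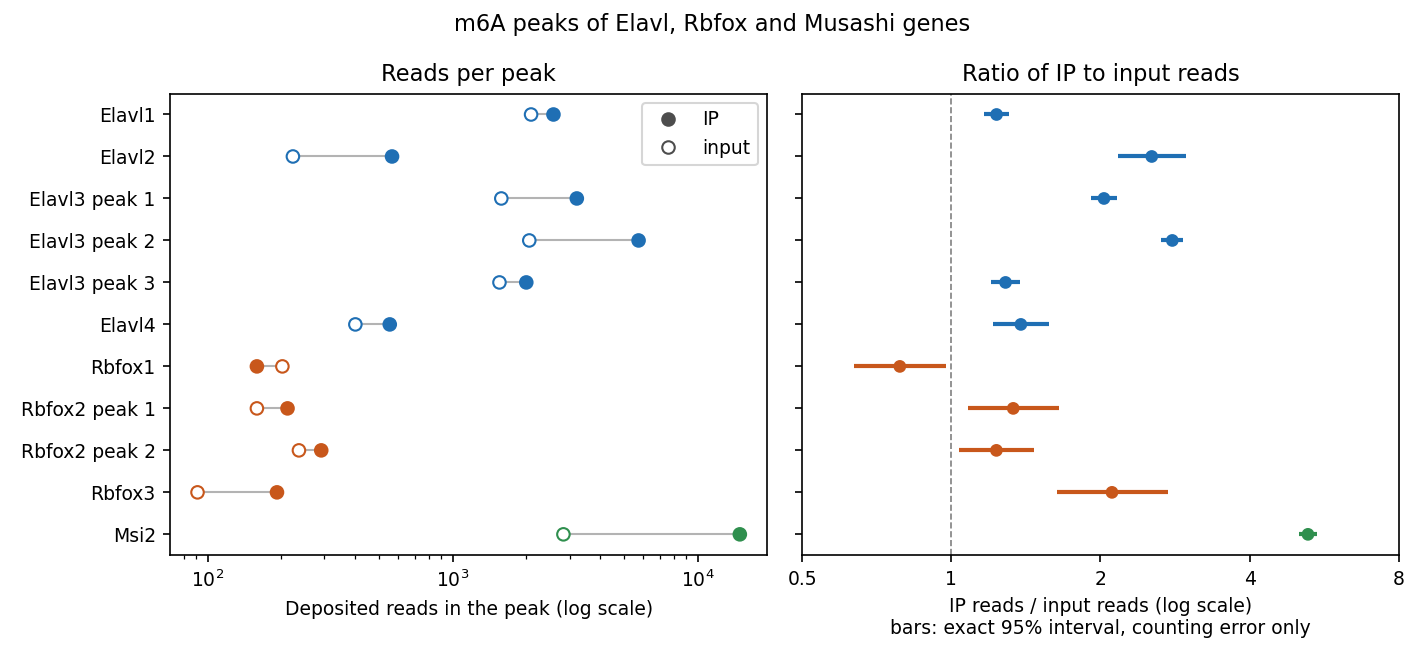
Left, IP reads (filled) and input reads (open) in each of the 11 peaks, as deposited, on a log axis; right, the ratio of IP to input reads with its exact 95% interval. Msi2 stands at 5.25 and Rbfox1 at 0.787, and peaks of a gene are numbered from its 5′ end.

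Among the Elavl genes, Elavl1 held 1 peak on chromosome 8 (minus strand, 4289082 to 4289706), 4.30 kb before the 3′ end of the gene. It had 2579 IP reads and 2090 input reads, a ratio of 1.23 (95% interval 1.16 to 1.31). The authors' deposited table put its log2 fold change at 2.69, above 37.0% of all peaks. This ratio was the lowest of the 6 Elavl peaks, though its interval overlaps that of Elavl3 peak 3 (1.20 to 1.38). By log2 fold change in the authors' deposited table Elavl3 peak 3 was lower, at 2.37.

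Elavl2 held 1 peak on chromosome 4 (minus strand, 91252988 to 91254207), with 566 IP reads and 223 input reads, a ratio of 2.54 (95% interval 2.17 to 2.98). The log2 fold change, 3.91 in the authors' deposited table, was above 77.6% of all peaks and was the highest of the Elavl genes. The peak lay 41.5 kb before the annotated 3′ end, at 77.7% of the gene span.

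Elavl3 was the only member with more than 2 peaks. Its 3 peaks lay within the last 2925 bases of the gene on chromosome 9 (minus strand), and the 3′ border of the last peak fell on the last base of the annotated span. From 5′ to 3′, peak 1 (22017655 to 22017929) had 3212 IP and 1580 input reads, a ratio of 2.03 (95% interval 1.91 to 2.16). Peak 2 (22015905 to 22016429) had 5739 IP and 2055 input reads, a ratio of 2.79 (95% interval 2.66 to 2.94). Peak 3 (22015005 to 22015204) had 1998 IP and 1553 input reads, a ratio of 1.29 (95% interval 1.20 to 1.38). The intervals of these ratios did not overlap, so the middle peak exceeded both flanking peaks beyond counting error. In the authors' deposited table the log2 fold changes were 2.92, 3.62 and 2.37 in the same order. Input reads lay between 1553 and 2055 in the 3 peaks, which have 200 to 525 bases. Per kb of peak they were 5745, 3914 and 7765 from 5′ to 3′, lowest in the middle peak. The Elavl3 peaks carried 2 gene identifiers each, and 1 of these was shared with a peak 3.26 kb outside Elavl3, at the near border of the neighbouring gene Zfp653 (264 IP and 104 input reads). How reads were divided between overlapping gene models was not stated.

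Elavl4 held 1 peak on chromosome 4 (minus strand, 110205947 to 110206446), 2.21 kb before the 3′ end. It had 554 IP reads and 401 input reads, a ratio of 1.38 (95% interval 1.21 to 1.57). The log2 fold change in the authors' deposited table was 3.15, above 53.1% of all peaks, whereas its read ratio was above only 24.7% of them. The deposited fold change is not a plain ratio of the deposited reads: it exceeded the log2 read ratio (pseudocount 0.5) by 2.69 for Elavl4, by 1.31 for Rbfox3 and by a median of 1.88 over all peaks. Positions in the order of the 11 peaks therefore depend on the measure, and Rbfox3 had rank 8 by fold change in the authors' deposited table and rank 4 by read ratio.

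The Rbfox genes all held peaks, and all 4 of these lay below the median fold change. Rbfox1 encodes a splicing factor of neurons and muscle, and its gene is the longest of the 9 with a span of 1528 kb. Its single peak on chromosome 16 (plus strand, 6349214 to 6487850) had 159 IP reads and 202 input reads, a ratio of 0.787 (95% interval 0.635 to 0.974). The log2 fold change was 1.77 in the authors' deposited table, above 7.23% of all peaks. It was the only 1 of the 11 peaks with fewer IP than input reads, as 11.3% of all peaks had. Such a ratio is not corrected for depth and does not show depletion.

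The Rbfox1 peak was written as an unbroken interval of 138.6 kb. With 159 IP reads from fragments of about 80 bases, this interval does not show an unbroken stretch of marked RNA. Its borders and midpoint do not locate the mark, and which parts are exon or intron was not analysed here. The set of RefSeq promoters used here lists 2 starts for Rbfox1 on GRCm38.p6. This set is incomplete, since it lists no start for Rbfox2 or Msi1, and Rbfox1 may have further starts. The peak begins 464 kb after the upstream start and ends 582 kb before the downstream start, so of the listed starts only the upstream one lies before the peak. The 250 bases before each start are shown because the peak lies between them, from chr16:5884543-5884792 and chr16:7069585-7069834 (plus strand), with CG dinucleotides in capitals:
upstream start: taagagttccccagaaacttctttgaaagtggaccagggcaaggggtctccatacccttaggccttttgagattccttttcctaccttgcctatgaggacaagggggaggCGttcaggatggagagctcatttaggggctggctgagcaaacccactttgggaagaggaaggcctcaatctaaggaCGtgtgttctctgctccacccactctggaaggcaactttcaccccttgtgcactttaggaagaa
downstream start: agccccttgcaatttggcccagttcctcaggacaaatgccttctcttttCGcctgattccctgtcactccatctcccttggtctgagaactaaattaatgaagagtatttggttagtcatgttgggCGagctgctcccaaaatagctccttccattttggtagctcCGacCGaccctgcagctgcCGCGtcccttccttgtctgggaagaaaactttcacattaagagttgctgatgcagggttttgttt
The upstream window holds 2 CG dinucleotides and the downstream window 6, against a median of 6 over the 32851 tabled promoters of the same length. CG reads the same on both strands, and 92.1% of the promoters hold at least 1. These counts describe the windows and say nothing on which start was used.

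Rbfox2, a splicing regulator made in many tissues, held 2 neighbouring peaks on chromosome 15 (minus strand) with 25 bases between them. The longer, peak 1 (77153687 to 77203385, 49.7 kb), had 212 IP and 159 input reads, a ratio of 1.33 (95% interval 1.08 to 1.65). The shorter, peak 2 (77153562 to 77153661, 100 bases), had 291 IP and 236 input reads, a ratio of 1.23 (95% interval 1.03 to 1.47). The intervals of the 2 ratios overlap, so the peaks did not differ beyond counting error. The longer Rbfox2 peak and the Rbfox1 peak were the 2 of 11 that spanned over 10000 bases, as did 13.0% of all peaks. In the authors' deposited table the log2 fold changes were 2.48 for the longer and 2.27 for the shorter. Both lie inside the gene, 74.6 kb or more before its 3′ end.

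Rbfox3 held 1 peak on chromosome 11 (minus strand, 118491062 to 118491261), 1.30 kb before the 3′ end. With 192 IP reads and 91 input reads it had the fewest input reads of the 11 peaks, and its ratio of 2.11 had the widest interval in relative terms (95% interval 1.64 to 2.74). The log2 fold change was 2.38 in the authors' deposited table. A further peak lay 1.88 kb outside the Rbfox3 span on the other strand, inside Engase, and was not counted.

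The Musashi genes stood apart from each other in this list: Msi2 had the strongest of the 11 peaks and Msi1 had none. The Msi2 peak on chromosome 11 (minus strand, 88365529 to 88365653) has 125 bases and lies 26.1 kb before the annotated 3′ end. It had 14858 IP reads and 2832 input reads, a ratio of 5.25 (95% interval 5.04 to 5.46), above 90.1% of all peaks. Its log2 fold change, 4.07 in the authors' deposited table, was above 82.1% of all peaks. Its IP reads alone made up 48.9% of those in the 11 peaks. For Msi1 (chromosome 5, 115359059 to 115455698) the table held no peak on either strand, and none within 5 kb outside the gene. The table lists only called peaks, so this sets no limit on m6A in Msi1 RNA or on its expression.

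The strand rule mattered for Msi2. Within its span 2 further peaks lay on the plus strand, with 6011 IP reads between them against 14858 on the minus strand, which is the strand of the RefSeq starts of Msi2. They carried another gene identifier, which is not named here.

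By read ratio the order was Msi2, Elavl3 peak 2, Elavl2, Rbfox3, Elavl3 peak 1, Elavl4, Rbfox2 longer peak, Elavl3 peak 3, Elavl1, Rbfox2 shorter peak and Rbfox1. Neighbours in this order had intervals that overlap, except at 3 steps: Msi2 above Elavl3 peak 2, Elavl3 peak 1 above Elavl4, and the shorter Rbfox2 peak above Rbfox1. Msi2 and Elavl3 peak 2 exceeded the ratio of the column totals (2 of 11 peaks, against 42.2% of all peaks), and for Elavl3 peak 2 the interval of 2.66 to 2.94 holds that ratio of 2.71.

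The median log2 fold change of the 11 peaks was 2.69 in the authors' deposited table, against 3.06 for all peaks, and 4 of the 11 lay above that median (Msi2, Elavl2, Elavl3 peak 2 and Elavl4), as do 50.0% of all peaks by construction. A log2 fold change of 4 or more in the authors' deposited table was reached by 1 of the 11 peaks, Msi2 at 4.07, with Elavl2 just below at 3.91. Of all peaks 19.8% reached it. By family the medians were 3.04 for the 6 Elavl peaks and 2.32 for the 4 Rbfox peaks in the authors' deposited table. The deposited adjusted p-values ran from 1.37e-42 for Msi2 to 1.57e-08 for Rbfox1.

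**Figure D2:**
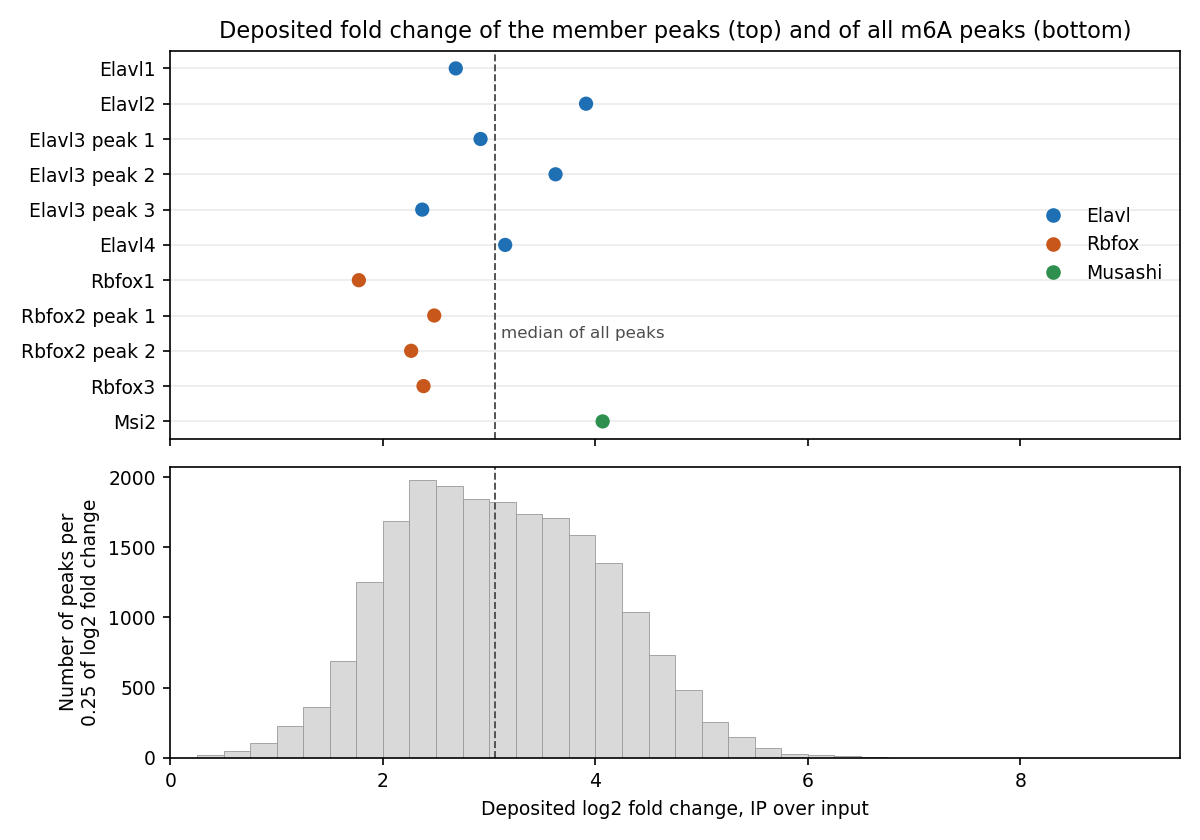
Top, the deposited log2 fold change of IP over input for each of the 11 peaks; bottom, the number of all 21195 peaks by the same measure, with the median of 3.06 as a dashed line. The Rbfox peaks lie between 1.77 and 2.48, left of the line, and Msi2 lies farthest right at 4.07.

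Input reads per kb of peak give a level of RNA in the peak that can be set side by side for peaks shorter than 2000 bases, as long as these cross no intron, which was not checked. Msi2 had 22656 input reads per kb, above 96.7% of the 13561 short peaks. The Elavl3 peaks had 5745, 3914 and 7765 input reads per kb from 5′ to 3′, and Elavl1 had 3344. The short Rbfox2 peak had 2360, Elavl4 had 802, Rbfox3 had 455 and Elavl2 had 183 input reads per kb. The median of all short peaks was 990 input reads per kb. Elavl4, Rbfox3 and Elavl2 were below it, and Elavl2, with the lowest level of RNA in its peak, had the second highest log2 fold change of the 11 in the authors' deposited table.

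Most of the peaks lay toward the 3′ end of their genes, as did most peaks inside protein-coding genes. The midpoint fell in the last 10% of the gene span for 6 of the 11 peaks (54.5%), against 36.4% of the 18230 peaks inside protein-coding genes. These 6 peaks belonged to 4 genes: Elavl3 with 3, Elavl4, Rbfox3 and Msi2. The Elavl1 peak lay just outside, at 88.6% of the span, and Elavl2 at 77.7%. The Rbfox2 peaks lay at 56.6% and 67.5%, and Rbfox1 at 34.9%, the 1 peak of 11 closer to the 5′ end than to the 3′ end, as were 30.4% of the peaks inside protein-coding genes. By the 3′ border of the peak in place of its midpoint, 6 of the 11 were in the last 10%, against 45.3%. With only peaks under 10000 bases, the count was again 6, against 40.1%. Gene spans include introns, and which exon or untranslated region a peak falls in was not analysed here. For peaks over 10000 bases, such as that of Rbfox1, the midpoint need not lie near the marked site.

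**Figure D3:**
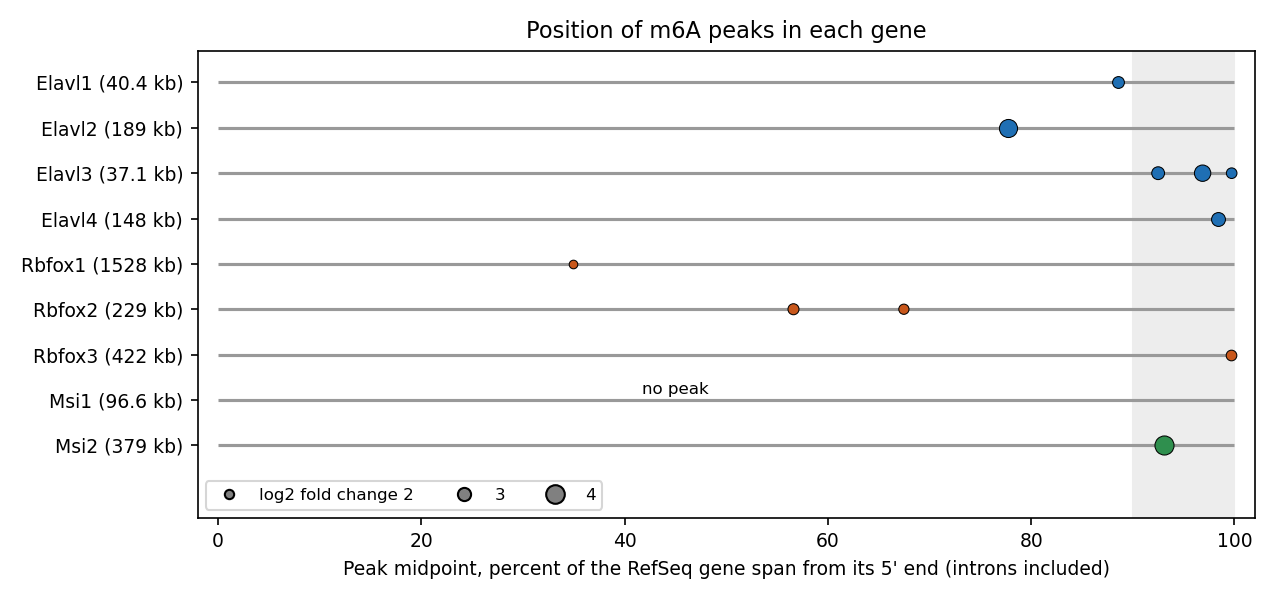
Midpoint of each peak as percent of the RefSeq gene span from the 5′ end, 1 line per gene with its span in kb; point area rises with the deposited log2 fold change and the grey band marks the last 10%. Elavl3, Elavl4, Rbfox3 and Msi2 have their peaks in the band, and Msi1 has none.

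Other regulators of neural splicing and mRNA fate were read by the same rule, from a list of 32 genes chosen with earlier results of these data known. Beside 8 of the 9 Elavl, Rbfox and Musashi genes, 18 of these 32 had a peak (56.2%), and 44.2% of all protein-coding genes. Counting only peaks on the gene's own strand, where RefSeq starts give it, 7 of 7 member genes, 12 of 24 listed genes and 43.5% of protein-coding genes had a peak. Rbfox2 and Msi1 have no listed starts, so this count leaves out Msi1, the only member without a peak on either strand. The strongest peak of each gene was then taken. In the authors' deposited table its median log2 fold change was 2.92 for the 8 member genes with a peak. It was 3.22 for the 18 listed genes and 3.51 for all 9674 protein-coding genes with a peak. These genes held 11, 36 and 19460 peaks, with at most 3, 5 and 98 per gene. Genes with many peaks have more chances to hold a strong one, and neither the medians nor the counts that follow are corrected for this. The listed genes include Cpeb3, Srrm4 and Ptbp1, whose strongest peak lay on the strand opposite to the gene's RefSeq starts. A strongest peak of 4 or more was found for 1 of 8 member genes and 4 of 18 listed genes, against 30.6% of all genes with a peak. These were Cpeb3, Mbnl1, Mbnl2 and Tardbp, for which the authors' deposited table gave 4.59, 4.28, 4.17 and 4.14. Mbnl1 and Mbnl2 are muscleblind splicing factors, Tardbp encodes the RNA-binding protein TDP-43, and Cpeb3 controls translation at cytoplasmic polyadenylation elements. Tardbp rested on 24151 IP and 7478 input reads, whereas the Mbnl2 peak rested on 53 IP and 14 input reads. Celf4 at 3.80 and Nova1 at 3.76 in the authors' deposited table came next, both splicing regulators of neurons.

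The strand with more IP reads was the gene's own in all 7 member genes with listed starts. It was the opposite strand for Cpeb3, Srrm4 and Ptbp1, 3 of the 14 other regulators that could be checked, and for 5.87% of 7762 protein-coding genes with a peak and RefSeq starts on a single strand.

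**Figure D4:**
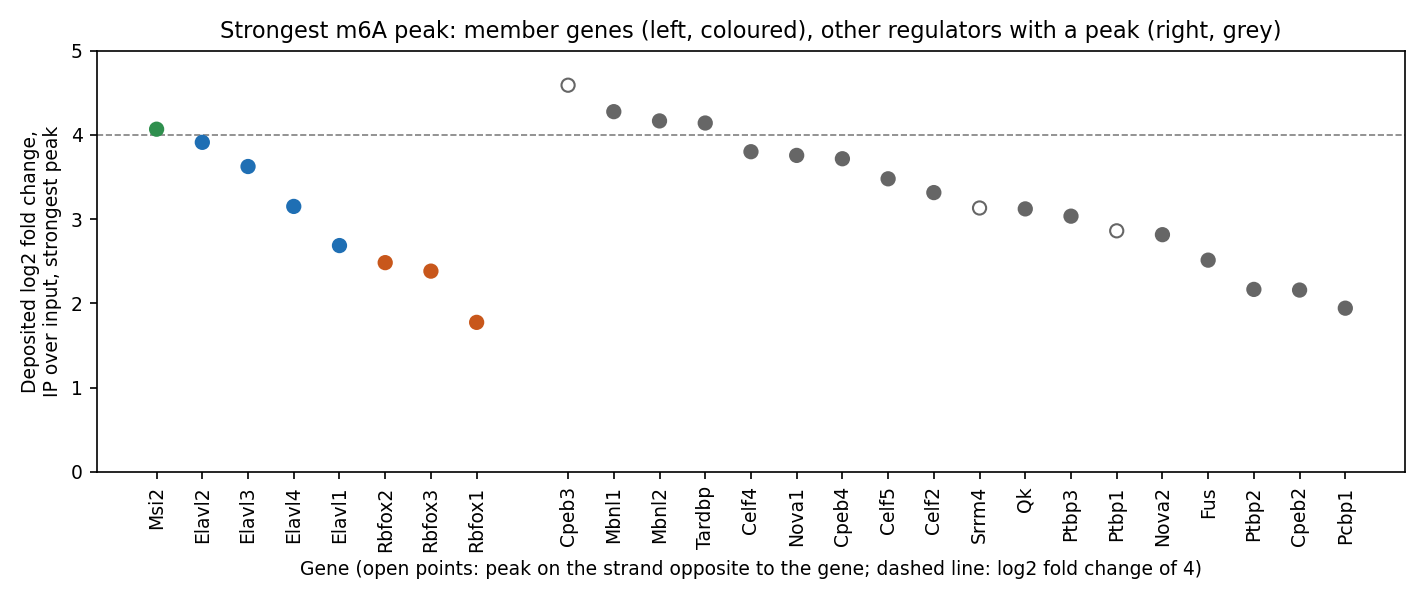
Deposited log2 fold change of IP over input for the strongest peak of each gene: the 8 member genes with a peak at left (blue Elavl, orange Rbfox, green Msi2), and the 18 other regulators with a peak at right (grey, open where the peak lies on the strand opposite to the gene's RefSeq starts). The dashed line marks 4, passed by Msi2 among the members and by Cpeb3, Mbnl1, Mbnl2 and Tardbp among the others.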

How the data were processed

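Per the submitters' processing notes, STAR 2.5.2a, Trimmomatic 0.32 and bcl2fastq 2.17.1.14 were used with the builds GRCm38.p6 and GRCh38.p13, with no roles given. How peaks were called and reads counted, and over which libraries, was not stated. The deposited read counts are whole numbers per peak, 1 column for IP and 1 for input, per the file headers, and sums or rounded means cannot be told apart. The deposited log2 fold changes, p-values and scores are the authors' own, and the score equals minus log2 of the adjusted p in all 21195 rows, within 1e-06. Both files hold the same intervals.

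Members were found with Python 3.11.15 and pandas 2.3.3 against the RefSeq gene table of GRCm38.p6, and the intervals were computed with scipy 1.17.1. Gene strands and the printed sequences come from the RefSeq promoter table of that build. The overlap, strand, position and interval code was tested on simulated data. No genome was used, so peak sequences are not shown.

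The table has 0 columns of single libraries, so the comparison of knockout with control and any leaving out of replicates could not be made. The genes, the gene lists and the threshold of 4 were chosen with earlier results of these data known. All 9 members are named, with every peak, and of the other regulators at most 6 by the highest deposited fold change, besides those on the opposite strand. No gene is named for a like pattern, since that needs values of single samples.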

Additional observations from a re-analysis of the deposited data

Results flagged for a closer look

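The plus-strand peaks within the span of Msi2, which the strand rule leaves out, held more IP than input reads. This does not set them apart, since only 11.3% of all peaks had fewer IP than input reads. The stronger, on chromosome 11 at 88363039 to 88363838, had 5879 IP and 1285 input reads, a ratio of 4.58 (95% interval 4.31 to 4.86). The authors' deposited table put its log2 fold change at 3.77. It lay 1.69 kb from the Msi2 peak, whose ratio was 5.25. The weaker, at 88356316 to 88357976, had 132 IP and 62 input reads, a ratio of 2.13 (95% interval 1.56 to 2.93), below the ratio of 2.71 between the column totals. For this peak the authors' deposited table gave 2.65 on the log2 scale, above 35.4% of all peaks. Both carried the same identifier, different from that of the Msi2 peak, and both were singled out as signal that no comparison of the report uses.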

How the results depend on the processing

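Of 58 recomputed values, at least 39 could not move. Some belong to a gene with a single peak. For the rest, every one of the 11 peaks has at least 10 reads of each kind and meets no other RefSeq gene. The second gene identifier of the Elavl3 peaks was not part of that check. Of the other 19, 14 stayed close: a count within 1.5 times, a read ratio within its interval, or the same fold change. The 5 that did not follow. With a log2 fold change of 3 or more in the authors' deposited table, 4 of the 11 peaks were past the threshold (52.1% of all peaks), and with 5 or more 0 were (2.58%). With reads divided by the column totals in place of the deposited fold change, 0 of the 11 reached 4 (0.0283% of all peaks), a scale that lacks the offset of the deposited values. Summed over its 3 peaks, Elavl3 had a ratio of 2.11 (95% interval 2.04 to 2.18). Taking the Rbfox2 peak with more IP reads gave 2.27 in place of 2.48 in the authors' deposited table. With an adjusted p under 1e-10, 6 of the 9 genes had a peak, without Rbfox1 and Rbfox3, and 41.3% of protein-coding genes. On the gene's own strand, an alternative chosen after seeing the data, 7 of 7 genes with listed starts had a peak, against 43.5%. That count leaves out Rbfox2 and Msi1, which have no listed starts, and Msi1 had no peak on either strand. No paired analysis was possible because no column belongs to a replicate, and no replicate could be left out. Depth limits the Rbfox and Elavl2 peaks most: 5 of the 11 peaks had under 250 input reads.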
